A study of Mus musculus with 10 samples.

Results

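The genes described here are the 6 neighbours of Cdk6 on mouse chromosome 5, Fam133b, Rbm48, Gatad1, Ankib1, Krit1 and Akap9, given in their order away from Cdk6, of 22911 genes with a symbol on the array. They were chosen by position, as genes that could be touched by an edit of the Cdk6 locus or be inherited with it. All 6 lie on the same side of Cdk6. Every non-control probe whose transcript belongs to 1 of the 6 genes was taken, which gave 13 of the 56605 non-control probes, and all 13 were among the 28182 probes kept for testing. Gatad1 had 1 probe, Fam133b, Rbm48 and Ankib1 had 2 each, and Krit1 and Akap9 had 3 each. Probes of a gene are numbered by brightness, from the brightest, and they share their target, so they are not replicates of one another.

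The study measured RNA of BCR-ABL+ colonies, that is, of mouse bone marrow cells that carry BCR-ABL, an oncogenic tyrosine kinase of human leukaemias, and grow without added growth factors. Bone marrow of donor mice aged 6 weeks was transduced with retrovirus, harvested after 24 h and grown for 10 days in methylcellulose, and RNA was taken from picked colonies. The groups were 4 samples of cells carrying Cdk6-K43M, a CDK6 protein without kinase activity, 4 samples of Cdk6-/- cells, which lack CDK6, and 1 pool of 4 Cdk6+/+ (wild-type) samples. Every 2-colour Agilent array set 1 mutant sample, in Cy5, beside the wild-type pool, in Cy3. For each genotype 1 further array carried a pool of its samples under exchanged dyes. How the K43M allele was made, whether all mice shared a strain and how many colonies or mice stand behind a sample are not given in the sources used here, so p-values measure the spread between these samples. The fit over wild type also counts the exchanged-dye pools of these same samples as further arrays. Both mutant groups are set against the same pool, which counts as 1 control sample without a spread of its own.

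CDK6 drives cells through G1 together with D-type cyclins, and it also acts on transcription. The neighbours have other roles: Rbm48 is an RNA-binding protein of the minor spliceosome, Gatad1 a zinc finger protein found in a histone demethylase complex, and Ankib1 an ankyrin-repeat ubiquitin ligase of the RBR class. Krit1 is the scaffold of the cerebral cavernous malformation complex, which binds the small GTPase Rap1 and is best known in endothelial cells. Akap9 is a very large scaffold that anchors protein kinase A at the Golgi and the centrosome. A chromosomal edit can carry along nearby alleles of another strain or reach nearby regulatory sequence, which is why neighbours of a targeted gene are often looked at.

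Promoter windows of RefSeq (GRCm38.p6, 250 bases before to 50 bases after a gene's start) were found for 5 of the 6 genes. The windows of Akap9, Ankib1 and Krit1 are shown, Akap9 because 2 of its 3 probes passed the test against wild type in each genotype, and Ankib1 and Krit1 because their starts face away from each other and share one stretch. They lie at chr5:3927936-3928235 (plus strand), chr5:3803075-3803374 (minus strand) and chr5:3802915-3803214 (plus strand, the first of the starts listed for Krit1). Capitals mark matches, on either strand, to the motifs named after the sequences.
Akap9: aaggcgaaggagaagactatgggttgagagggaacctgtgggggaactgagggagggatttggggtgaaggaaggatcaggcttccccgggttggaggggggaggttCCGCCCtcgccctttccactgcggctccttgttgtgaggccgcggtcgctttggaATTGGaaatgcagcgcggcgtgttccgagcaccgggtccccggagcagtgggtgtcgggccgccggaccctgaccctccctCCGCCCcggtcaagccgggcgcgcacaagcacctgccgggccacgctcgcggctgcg
Ankib1: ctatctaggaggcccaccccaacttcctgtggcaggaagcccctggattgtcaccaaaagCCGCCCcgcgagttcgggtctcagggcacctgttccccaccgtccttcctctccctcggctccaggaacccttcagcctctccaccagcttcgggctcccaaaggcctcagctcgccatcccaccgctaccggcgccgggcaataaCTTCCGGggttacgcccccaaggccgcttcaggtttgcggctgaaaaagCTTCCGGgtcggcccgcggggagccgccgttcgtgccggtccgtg
Krit1: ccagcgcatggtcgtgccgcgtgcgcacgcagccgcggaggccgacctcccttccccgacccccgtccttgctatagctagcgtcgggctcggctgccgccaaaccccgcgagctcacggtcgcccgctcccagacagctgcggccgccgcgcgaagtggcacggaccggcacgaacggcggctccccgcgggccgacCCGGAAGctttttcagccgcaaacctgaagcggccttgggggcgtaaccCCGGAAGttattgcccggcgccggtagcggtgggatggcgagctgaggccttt

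The motifs searched were CCAAT, the GC box GGGCGG, the E2F motifs TTTCGCGC and TTTGGCGC, the cyclic AMP response element TGACGTCA, and the AP-1 motif TGANTCA. The ETS motif CCGGAAG, the TATA box TATAAA and the STAT motif TTCNNNGAA were searched too, and no matches overlap in these windows. The Akap9 window held 1 CCAAT and 2 GC boxes, which occur in 37.4% and 35.7% of the 32851 promoter windows of this length. The starts of Ankib1 and Krit1 are 40 bases apart, and their windows share 140 bases. That shared stretch holds 2 ETS matches, seen from opposite strands in the lines for Ankib1 and Krit1, and 8.86% of all windows hold at least 1 such match. The 3 windows had a GC content of 67.7% (Akap9), 66.3% (Ankib1) and 71.7% (Krit1), and no E2F, AP-1, STAT, TATAAA or TGACGTCA match was in them.

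The share of probes well above background was 46.9 to 49.9% for mutant RNA and 45.8 to 50% for wild-type RNA; no spot was saturated, and the number of arrays limits the precision. All 13 flanking probes and the Cdk6 probe stood well above background in mutant and wild-type RNA on all 10 arrays. Log2 ratios of samples of 1 genotype correlated over kept probes, which are not independent, with r of 0.326 to 0.666 (Cdk6-K43M) and 0.319 to 0.587 (Cdk6-/-). The 8 B-lineage progenitor markers were well above background in both channels of every array, while 5 to 7 of 10 granulocyte, monocyte and macrophage markers were so in mutant RNA and 9 or 10 in the wild-type pool. Of these 10 myeloid markers, 5 fell and 0 rose in each genotype (50%, beside 25.3% of all genes with a symbol in Cdk6-K43M and 8.99% in Cdk6-/- samples). Their summed normalised level was 5169 to 7957 in Cdk6-K43M samples 1 to 3, 14951 in Cdk6-K43M sample 4, 5623 to 6750 in Cdk6-/- samples and 8067 to 9311 in the wild-type pool on the same arrays. Cdk6-K43M sample 4 stood apart by the markers Lyz2, Csf1r and Adgre1, with log2 ratios of 2.24, 1.95 and 2.07, all of which were below 0 in the other 7 single samples. The other markers of the myeloid list were below 0 in Cdk6-K43M sample 4, with Itgam at -0.0029. Of the B-lineage markers, 1 rose and 2 fell in Cdk6-K43M samples and 1 rose in Cdk6-/- samples. None of 3 erythroid markers passed the test in Cdk6-K43M samples and 1 rose in Cdk6-/- samples, and neither of 2 T-cell markers passed it in either. In RNA of whole colonies, fewer cells of a type and less RNA per cell cannot be told apart.

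The targeted gene was looked at first. The log2 ratio of Cdk6 over the wild-type pool was 0.31, 0.40, 0.33 and 0.83 in Cdk6-K43M samples 1 to 4, against -0.37, -0.40, -0.18 and 0.0024 in Cdk6-/- samples 1 to 4. The pools with exchanged dyes gave 0.33 for Cdk6-K43M and -0.67 for Cdk6-/-. The groups did not overlap, although Cdk6-/- sample 4 stood at the wild-type level; 8.1% of all probes also showed no overlap between the 8 samples. Fitted over all arrays, Cdk6 rose by 0.35 (log2, SE 0.098, limma adjusted p = 0.0296) in Cdk6-K43M samples and fell by 0.41 (SE 0.098, adjusted p = 0.0364) in Cdk6-/- samples. The fall in Cdk6-/- samples missed the threshold without the exchanged-dye arrays (-0.24, adjusted p = 0.138) and without Cdk6-/- sample 1 (adjusted p = 0.0964), 2 (0.0823) or 3 (0.0513). Where this single probe lies relative to the deleted part is not given here, so a remaining signal in Cdk6-/- samples does not check the deletion.

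Fitted log2 ratios of the 13 flanking probes ran from -0.27 to 0.35 in Cdk6-K43M samples and from -0.16 to 0.34 in Cdk6-/- samples, with medians of 0.11 and 0.054 (over all kept probes, -0.0083 and -0.0024). In Cdk6-K43M samples 4 of 13 probes passed the threshold of an adjusted p of 0.05, 3 higher and 1 lower, which is 30.8% beside 20.3% of all kept probes (10.1% higher, 10.2% lower). In Cdk6-/- samples 2 of 13 passed, both higher, which is 15.4% beside 6.8% of all kept probes (3.14% higher, 3.66% lower). With arrays centred on their median in place of loess, 9 of 13 passed in Cdk6-K43M samples, 9 higher and 0 lower, beside 29.1% of all kept probes. But the median of all kept probes then moved to 0.11, and 88.1% of all called probes were higher, against 49.7% with loess. By the brightest probe of each gene, 1 of 6 genes, Akap9, passed in each genotype (20.3% of all 22012 genes by their brightest probe did in Cdk6-K43M and 7.12% in Cdk6-/- samples). Of genes with a symbol, as all 6 are, 25.3% passed in Cdk6-K43M and 8.99% in Cdk6-/- samples. Both probe shares stood somewhat above the background, on counts so small that 1 gene, Akap9, supplied 2 of the probes in each. Counted by genes, 1 of 6 was below the background in Cdk6-K43M samples and above it in Cdk6-/- samples.

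**Figure D1:**
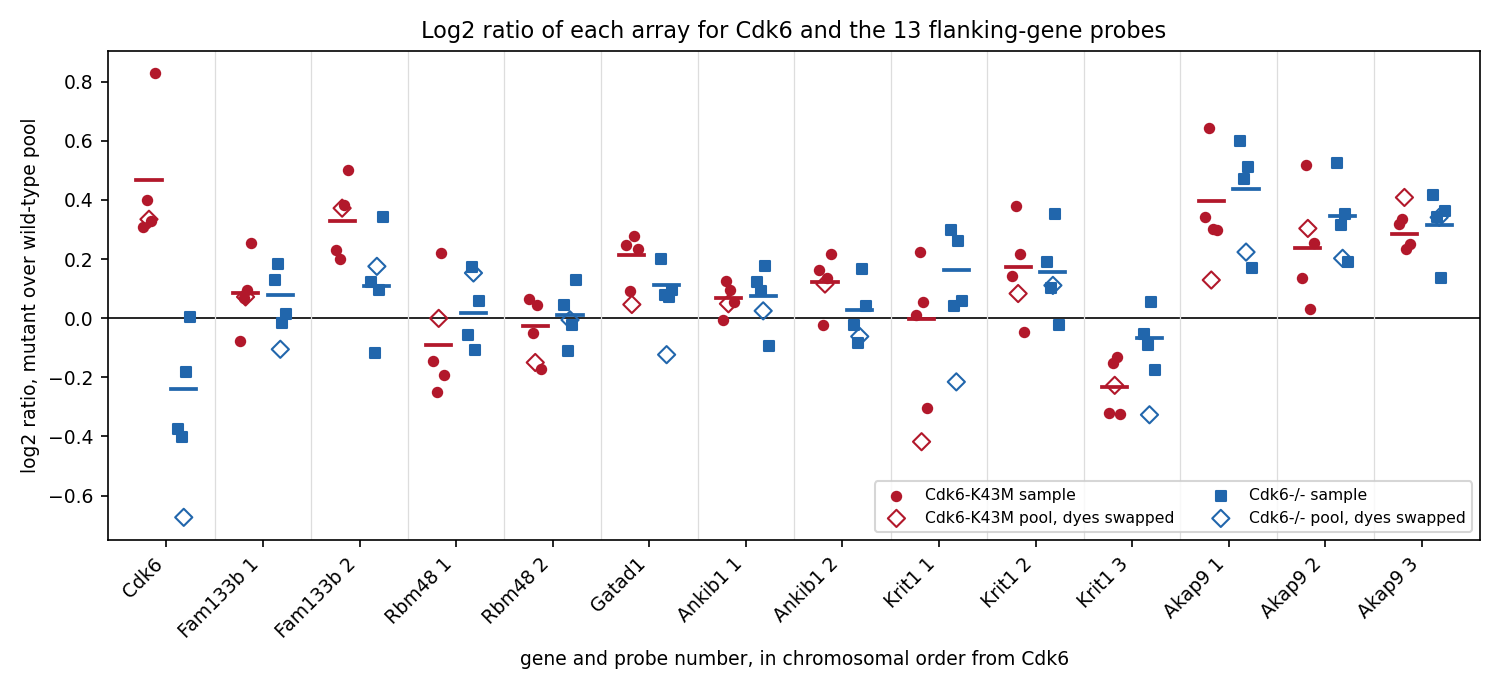
Log2 ratio of mutant over wild-type pool (vertical axis) for Cdk6 and the 13 probes of its neighbours, in chromosomal order (horizontal axis); filled circles are Cdk6-K43M samples, filled squares Cdk6-/- samples, bars their means (n = 4), and open diamonds the pools with exchanged dyes. The Cdk6 groups do not overlap, the Akap9 values lie above 0 on all 10 arrays, and most other probes scatter around 0.

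Akap9, the farthest of the 6 from Cdk6, was the neighbour that stood above wild type throughout. Its brightest probe had log2 ratios of 0.34, 0.64, 0.30 and 0.30 in Cdk6-K43M samples 1 to 4, against the wild-type pool, and 0.60, 0.47, 0.51 and 0.17 in Cdk6-/- samples 1 to 4. Every sample was above the pool, and the genotypes overlapped. The pools with exchanged dyes gave 0.13 for Cdk6-K43M and 0.22 for Cdk6-/-, the lowest or next to lowest value of each genotype. On this probe Akap9 rose by 0.27 (SE 0.079, limma adjusted p = 0.0366) in Cdk6-K43M samples and by 0.32 (SE 0.079, adjusted p = 0.0398) in Cdk6-/- samples, 1.21-fold and 1.25-fold. These 2 calls were close to the threshold: the first was lost without Cdk6-K43M sample 1 (adjusted p = 0.0599) or 2 (0.0674) or Cdk6-/- sample 2 (0.052), and the second without Cdk6-K43M sample 1 (0.0589) or 3 (0.0526) or Cdk6-/- sample 1 (0.104), 2 (0.0824) or 3 (0.0698), and on the authors' deposited table (0.0522).

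The least bright Akap9 probe gave the firmest result. Its log2 ratios were 0.32, 0.34, 0.23 and 0.25 in Cdk6-K43M samples, and 0.42, 0.34, 0.13 and 0.36 in Cdk6-/- samples, with 0.41 and 0.34 in the exchanged-dye pools of Cdk6-K43M and Cdk6-/-. All 10 values lay above 0 and within a narrow range. Akap9 rose on this probe by 0.33 (SE 0.054, 95% interval 0.21 to 0.45, adjusted p = 0.00265) in Cdk6-K43M samples and by 0.34 (SE 0.054, 95% interval 0.22 to 0.46, adjusted p = 0.00826) in Cdk6-/- samples. It passed the threshold in both comparisons under each of the 15 alternatives in which it could be fitted, with adjusted p up to 0.00797 in Cdk6-K43M samples and up to 0.0272 in Cdk6-/- samples.

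The middle Akap9 probe had the same direction with a wider scatter. Its log2 ratios were 0.14, 0.52, 0.033 and 0.26 in Cdk6-K43M samples, and 0.53, 0.32, 0.35 and 0.19 in Cdk6-/- samples, with 0.30 and 0.20 in the exchanged-dye pools of Cdk6-K43M and Cdk6-/-. Its fitted ratios of 0.24 (SE 0.082, adjusted p = 0.0667) in Cdk6-K43M samples and 0.31 (SE 0.082, adjusted p = 0.0534) in Cdk6-/- samples missed the threshold. Ratios above 0 on all 10 arrays, which the 3 Akap9 probes shared, were found for 4.44% of all probes, and all 10 arrays hold the same wild-type RNA.

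On a linear scale, with levels normalised across channels and arrays, the brightest Akap9 probe lay at 705 to 948 in Cdk6-K43M samples, 699 to 1035 in Cdk6-/- samples and 564 to 727 in the wild-type pool on the same 8 arrays. The least bright probe lay at 404 to 435 in Cdk6-K43M samples, 430 to 447 in Cdk6-/- samples and 325 to 400 in the wild-type pool, so that no mutant level reached down into the wild-type range. Fitted Akap9 levels were thus higher in Cdk6-K43M and Cdk6-/- samples than in wild type, with no separation of the mutant genotypes. Their difference, Cdk6-K43M over Cdk6-/-, was -0.04 (95% interval -0.31 to 0.23, adjusted p = 0.908) on the brightest probe, -0.11 (-0.38 to 0.16, adjusted p = 0.721) on the middle one and -0.03 (-0.21 to 0.15, adjusted p = 0.907) on the least bright one. Within slides the brightest probe gave differences of -0.26, 0.13 and -0.17, and the least bright probe -0.10, 0.05 and -0.11, for slides 1 to 3. With slide as a block, the brightest and the least bright probe passed the threshold in both comparisons with wild type (adjusted p of 0.0309 and 0.00224 in Cdk6-K43M samples, 0.0341 and 0.00728 in Cdk6-/- samples). Without Cdk6-/- sample 4, whose Cdk6 level was that of wild type, Akap9 in Cdk6-/- samples was at 0.38 (adjusted p = 0.0176) on the brightest and 0.33 (adjusted p = 0.0171) on the least bright probe. Without Cdk6-K43M sample 4, which stood apart by Lyz2, Csf1r and Adgre1, Akap9 in Cdk6-K43M samples was at 0.29 (adjusted p = 0.0418) on the brightest and 0.34 (adjusted p = 0.00503) on the least bright probe. The other Cdk6-K43M samples lay below the wild-type pool in summed myeloid marker level, and the exchanged-dye pool of Cdk6-K43M stayed in that fit. The part of the myeloid marker level in the Akap9 result was thus not tested.

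**Figure D2:**
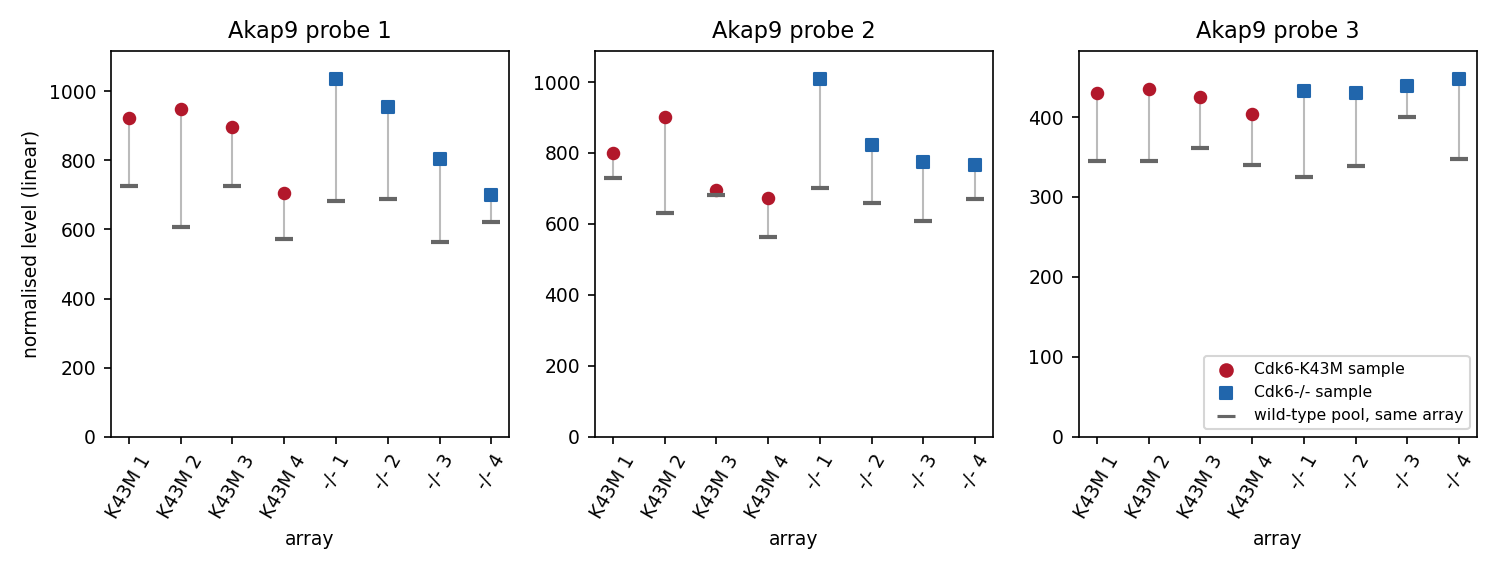
Normalised level (linear vertical axis from 0) of the 3 Akap9 probes in each mutant sample (circles Cdk6-K43M, squares Cdk6-/-) and in the wild-type pool on the same array (grey dashes), 1 array per column. The mutant level lies above the wild-type level on each of the 8 arrays for every probe, by the least for the middle probe in Cdk6-K43M sample 3.

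Krit1 was measured by 3 probes that did not move together. The least bright probe, designed on another transcript record of Krit1 than the first and second, had log2 ratios of -0.32, -0.15, -0.13 and -0.33 in Cdk6-K43M samples, and -0.05, -0.09, 0.06 and -0.18 in Cdk6-/- samples. The exchanged-dye pools gave -0.23 for Cdk6-K43M and -0.33 for Cdk6-/-. On it Krit1 fell by 0.27 (SE 0.061, adjusted p = 0.0128) in Cdk6-K43M samples, below wild type on all 5 Cdk6-K43M arrays, and was at -0.16 (SE 0.061, adjusted p = 0.152) in Cdk6-/- samples. The call in Cdk6-K43M samples was lost when arrays were centred on their median in place of loess (-0.18, adjusted p = 0.122).

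The brightest Krit1 probe scattered between 0.22 and -0.30 over the 4 Cdk6-K43M samples and between 0.30 and 0.04 over the 4 Cdk6-/- samples. Its exchanged-dye pools were lower than every single sample of their genotype, at -0.42 for Cdk6-K43M and -0.22 for Cdk6-/-. The fitted ratios of -0.21 (SE 0.081, adjusted p = 0.104) in Cdk6-K43M samples and -0.03 (SE 0.081, adjusted p = 0.856) in Cdk6-/- samples rest on these pools, since the means of the single samples were -0.0032 ± 0.22 and 0.16 ± 0.13 (SD, n = 4 each). The dye effect of this probe was 0.20 (adjusted p = 0.112). The second Krit1 probe stood at 0.13 in both genotypes (SE 0.076, adjusted p = 0.249 in Cdk6-K43M samples and 0.339 in Cdk6-/- samples), and at 0.31 (adjusted p = 0.0185) in Cdk6-K43M samples with median centring. Krit1 as a whole can thus be called neither higher nor lower from its 3 probes, and whether the probes differed from one another was not tested.

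Fam133b, the neighbour next to Cdk6 among the 6, also gave different values on its 2 probes. The second probe had log2 ratios of 0.23, 0.20, 0.38 and 0.50 in Cdk6-K43M samples, and 0.12, -0.12, 0.10 and 0.34 in Cdk6-/- samples, with 0.37 and 0.18 in the exchanged-dye pools of Cdk6-K43M and Cdk6-/-. On it Fam133b rose by 0.35 (SE 0.075, adjusted p = 0.0094), 1.28-fold, in Cdk6-K43M samples, above wild type on all 5 arrays, and was at 0.14 (SE 0.075, adjusted p = 0.284) in Cdk6-/- samples. The difference of the genotypes was 0.22 (95% interval -0.04 to 0.47, adjusted p = 0.415), with 0.11, 0.13 and 0.50 within slides 1 to 3, so a higher level in Cdk6-K43M than in Cdk6-/- samples was not shown. The first probe, which is the brighter one, was at 0.05 (SE 0.062, adjusted p = 0.603) in Cdk6-K43M samples and 0.01 (SE 0.062, adjusted p = 0.933) in Cdk6-/- samples, with single values between -0.08 and 0.25 in Cdk6-K43M and between -0.02 and 0.18 in Cdk6-/- samples. With median centring it was at 0.24 (adjusted p = 0.0461) in Cdk6-K43M samples.

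No probe of the 3 genes between them passed the threshold. Gatad1 was above the pool in all 8 single samples, at 0.25, 0.09, 0.28 and 0.23 in Cdk6-K43M and 0.20, 0.08, 0.07 and 0.10 in Cdk6-/- samples, but the exchanged-dye pools stood at 0.05 and -0.12, and the fitted ratios of 0.12 (SE 0.049, adjusted p = 0.113) and 0.0042 (SE 0.049, adjusted p = 0.97) missed the threshold. Without the exchanged-dye arrays and the dye term the Gatad1 ratio in Cdk6-K43M samples was 0.21 (adjusted p = 0.0164), and with median centring it was 0.32 (adjusted p = 0.00757). The 2 Ankib1 probes were at 0.05 and 0.11 in Cdk6-K43M samples (adjusted p = 0.535 and 0.223) and at 0.05 and -0.0057 in Cdk6-/- samples (adjusted p = 0.576 and 0.965). With median centring, which moved the median of all kept probes to 0.11 in Cdk6-K43M samples, the Ankib1 probes were at 0.23 (adjusted p = 0.0222) and 0.20 (adjusted p = 0.0256) there. The 2 Rbm48 probes were at -0.04 and -0.07 in Cdk6-K43M samples (adjusted p = 0.775 and 0.421) and at 0.08 and -0.01 in Cdk6-/- samples (adjusted p = 0.588 and 0.91). Their 95% intervals together spanned -0.21 to 0.23 in Cdk6-K43M and -0.14 to 0.25 in Cdk6-/- samples, so changes larger than these were outside the intervals of every Ankib1 and Rbm48 probe.

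Between the mutant genotypes, 0 of 13 flanking probes passed limma's test, beside 0.454% of all kept probes. The count was 0 under every alternative tried. In the reported fit 0 of 13 also had an unadjusted p under 0.05. Against wild type 7 of 13 had one in Cdk6-K43M and 4 of 13 in Cdk6-/- samples. The share of all kept probes with one was not counted, and the 20.3% and 6.8% that passed the stricter adjusted threshold are only its lower limit. Whether 7 of 13 and 4 of 13 are more than that share is thus not known. Fitted differences between the genotypes ran from -0.17 to 0.22 around a median of -0.03 (over all kept probes, -0.0047). No 95% interval reached below -0.44 (the brightest Krit1 probe) or above 0.47 (the second Fam133b probe). For Cdk6 itself the difference was 0.70 (SE 0.14, 95% interval 0.39 to 1.02), with 0.68, 0.70 and 0.73 within slides 1 to 3. Its adjusted p of 0.0847 missed the threshold and ranged from 0.0141 to 0.236 over the alternatives, passing over all 10 arrays (0.77, adjusted p = 0.0141), with the scanner software's processed intensity (1.63, adjusted p = 0.0327) and when arrays were centred on the median (0.84, adjusted p = 0.0439).

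**Figure D3:**
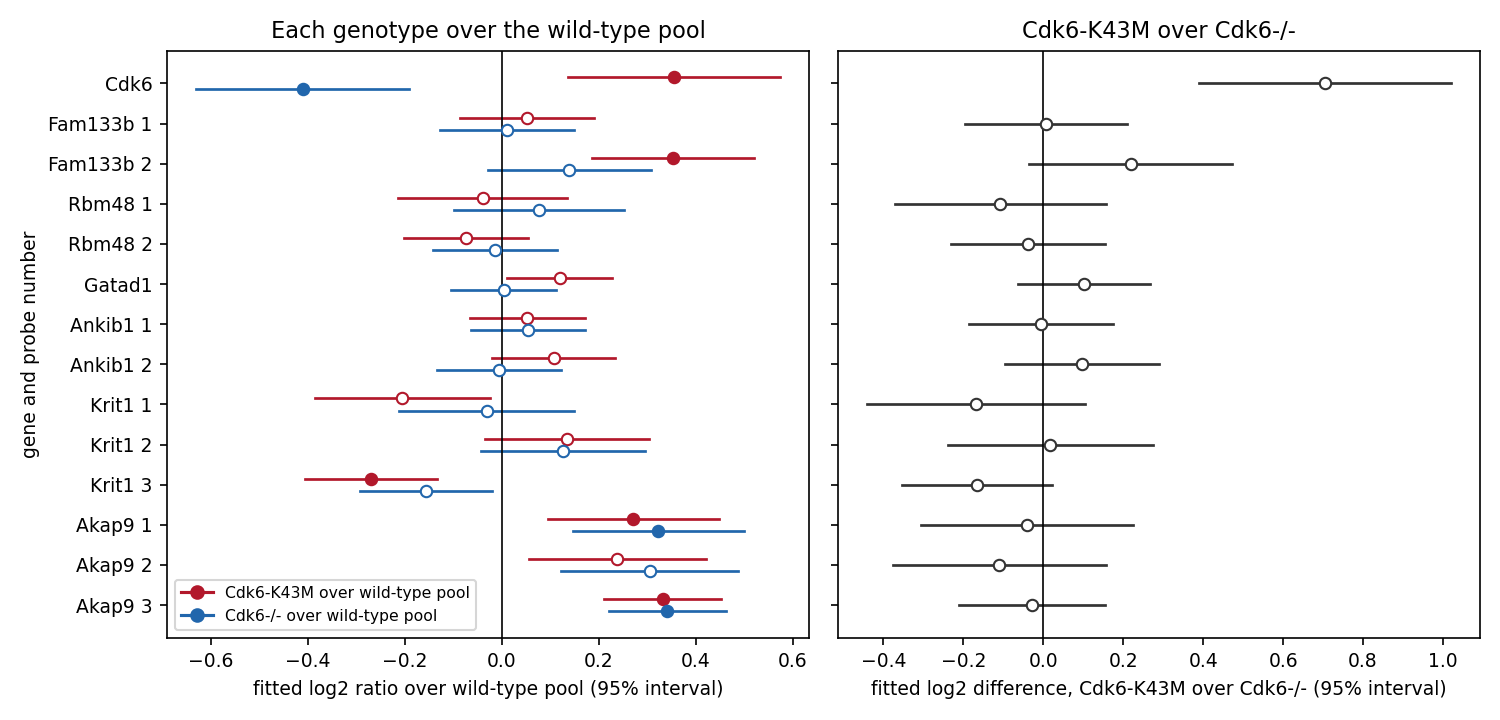
Fitted log2 ratio of each genotype over the wild-type pool (left) and of Cdk6-K43M over Cdk6-/- (right), with 95% intervals, for Cdk6 and the 13 flanking probes; filled points passed the threshold. Filled points among the neighbours are the brightest and least bright Akap9 probes (both genotypes), the second Fam133b and the least bright Krit1 probe (Cdk6-K43M), and none on the right.

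The neighbourhood was then set beside the rest of the proximal end of chromosome 5. The list held the genes next to or between the neighbours and the next 20 tested genes beyond Akap9, 31 in all, of which 23 had a kept probe. All 23 lie on the same side of Cdk6 as the neighbours. The genes listed on its other side, Gm36548 and Gm36470, had no probe, so that side was not measured here. Of these 23, 1 rose and 5 fell in Cdk6-K43M samples (26.1%, beside 25.3% of all genes with a symbol), and 1 rose and 3 fell in Cdk6-/- samples (17.4%, beside 8.99%). Their median log2 ratio was -0.04 and -0.02 (over all genes, -0.01 and 0.0014). Over the 778 tested genes of chromosome 5, 26.6% and 9.13% passed. The shares of the proximal genes were thus close to the background in Cdk6-K43M samples, and above it, by a few genes, in Cdk6-/- samples.

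The genes of this paragraph were named after their values were seen, for their place beside the 6. Mterf1a, a mitochondrial transcription termination factor with a near-identical copy, Mterf1b, that the probes may not separate, was at -0.10 and -0.04, in Cdk6-K43M and Cdk6-/- samples, and did not pass the threshold. 1700109H08Rik was lower in Cdk6-K43M samples (-0.24, SE 0.063, adjusted p = 0.0245) on its brighter probe, a call lost without Cdk6-K43M sample 1 (adjusted p = 0.0573), and at 0.0064 on its other one. Cyp51, the lanosterol demethylase of cholesterol synthesis just beyond Akap9, was at 0.02, -1.16, -0.90 and -0.71 in Cdk6-K43M samples, and -0.37, -0.81, -0.92 and -0.0020 in Cdk6-/- samples. Its fitted ratio of -0.62 (adjusted p = 0.042) in Cdk6-K43M samples lost the threshold without any 1 of Cdk6-K43M samples 2 to 4 (adjusted p of 0.065 to 0.0881) or Cdk6-/- sample 1 (0.0604), with processed intensity (0.0539), with median centring (-0.43, 0.117) and with no filter (0.0547).

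The 4 genes of the list with the smallest p lay beyond the 6 neighbours. Cldn12, a tight junction claudin, had log2 ratios of 1.38, 1.25, 1.57 and 0.99 in Cdk6-K43M and 1.15, 1.17, 0.86 and 1.23 in Cdk6-/- samples, fitted at 1.34 (SE 0.09, adjusted p = 2.22e-05) and 1.15 (SE 0.09, adjusted p = 0.00014). Cd36, a scavenger receptor for fatty acids found on myeloid cells among others, was at -1.93, -1.93, -2.12 and -1.45 in Cdk6-K43M and -2.25, -1.86, -1.58 and -2.62 in Cdk6-/- samples, fitted at -1.69 (SE 0.15, adjusted p = 0.000131) and -1.90 (SE 0.15, adjusted p = 0.000173). No sample of either genotype crossed 0 for these genes. Tmem243, a transmembrane protein gene, was at -1.08, -1.13, -0.84 and -1.03 in Cdk6-K43M and -1.14, -0.96, -0.32 and -1.02 in Cdk6-/- samples, fitted at -1.15 (adjusted p = 0.000219) and -0.99 (adjusted p = 0.0015). Dbf4, the activating subunit of the Cdc7 kinase that starts DNA replication, was at -0.73, -0.82, -0.32 and -0.71 in Cdk6-K43M and -0.79, -0.44, -0.56 and -0.67 in Cdk6-/- samples, fitted at -0.57 (adjusted p = 0.00163) and -0.56 (adjusted p = 0.00653). Between the genotypes none of the 23 genes passed the threshold (0.5% of all genes with a symbol did), and the fitted differences for Cldn12, Cd36, Tmem243 and Dbf4 were 0.20, 0.22, -0.16 and -0.03. Both comparisons with wild type share the pool, and these genes were named by the size of their p against it.

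**Figure D4:**
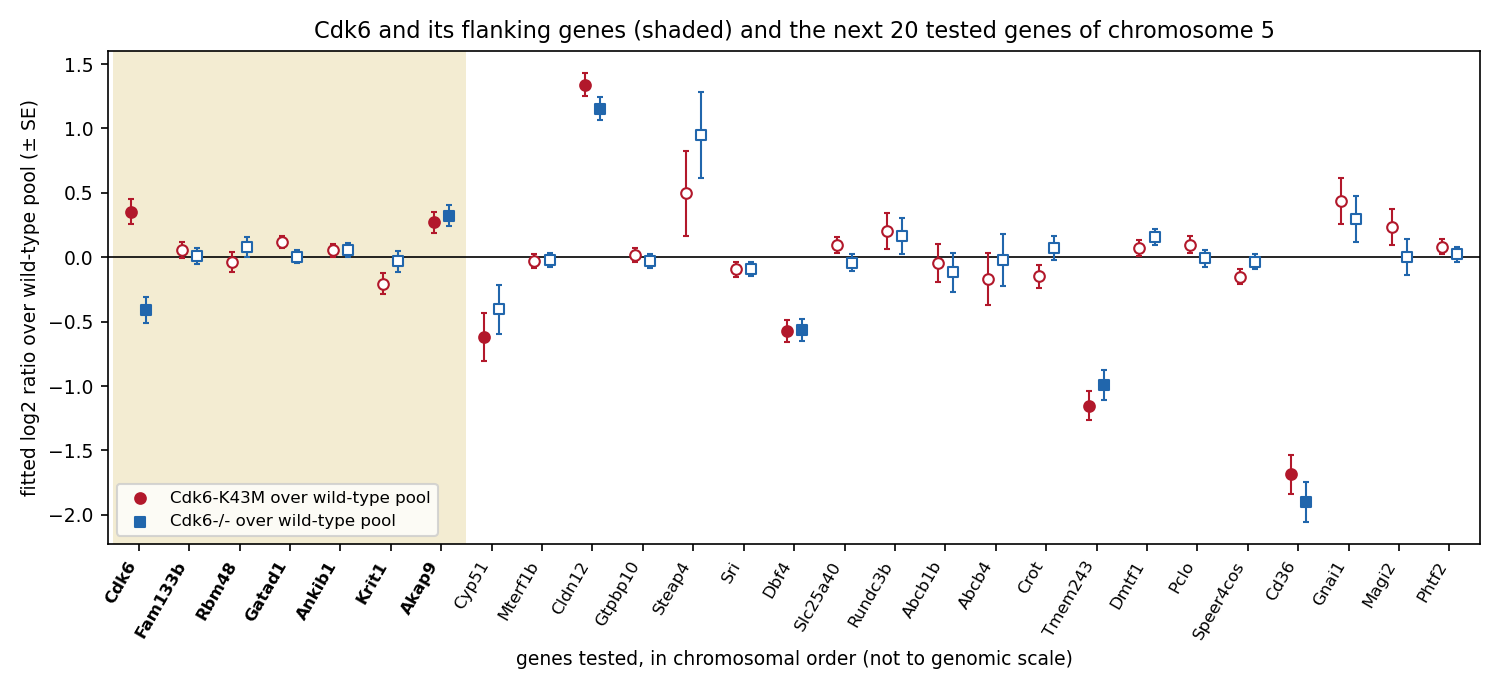
Fitted log2 ratio over the wild-type pool (± SE) for Cdk6, its 6 neighbours by their brightest probe (shaded) and the next 20 tested genes of chromosome 5 beyond Akap9, in chromosomal order and not to scale; circles are Cdk6-K43M, squares Cdk6-/-, and filled symbols passed the threshold. The neighbours lie within -0.21 to 0.32, while Cldn12, Dbf4, Tmem243 and Cd36 lie far from 0 in both genotypes.

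The partners and relatives of the neighbours' proteins were counted next, by the brightest probe of each gene. The shares called are to be read beside 25.3% of all genes with a symbol in Cdk6-K43M and 8.99% in Cdk6-/- samples. For Akap9 the list held protein kinase A, Golgi and centrosome partners and also other anchoring proteins, such as Akap1 and Akap13. Of its 18 tested genes, 2 rose and 4 fell in Cdk6-K43M samples (33.3%) and 2 fell in Cdk6-/- samples (11.1%), with medians of -0.01 and -0.05. In Cdk6-K43M samples Prkar2b, a type II regulatory subunit of protein kinase A, rose by 0.80 (SE 0.14, adjusted p = 0.00318), and the centrosome proteins Cdk5rap2 and Pcnt fell by 0.48 (adjusted p = 0.00465) and 0.25 (adjusted p = 0.0118), as did the anchoring protein Akap13, by 0.40 (adjusted p = 0.0102). With median centring the calls of Pcnt (-0.046, adjusted p = 0.716) and Akap13 (-0.17, adjusted p = 0.205) were lost. In Cdk6-/- samples Prkar2a, another type II regulatory subunit, fell by 1.00 (SE 0.20, adjusted p = 0.0187), and the phosphatase catalytic subunit Ppp1ca fell by 0.19 (adjusted p = 0.0461). The Ppp1ca call held in only 5 of 16 alternatives (adjusted p up to 0.338). Prkar2b was at 0.38 (adjusted p = 0.125) in Cdk6-/- samples and Prkar2a at 0.03 (adjusted p = 0.939) in Cdk6-K43M samples, and the differences of the genotypes did not pass the threshold for either (adjusted p = 0.387 and 0.199). The other Prkar2a probe was at -0.09 in Cdk6-K43M and -0.38 in Cdk6-/- samples.

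Of 12 tested genes of the Krit1 complex and its targets, 1 rose and 2 fell in Cdk6-K43M samples (25%) and 1 fell in Cdk6-/- samples (8.33%), beside 25.3% and 8.99% of all genes with a symbol. The count in Cdk6-K43M samples was 1 to 5 over the processing alternatives. Klf2, a transcription factor of quiescent lymphocytes and endothelium that the complex restrains in endothelial cells, was at -1.09 (SE 0.093, adjusted p = 0.000102) in Cdk6-K43M and -1.69 (SE 0.093, adjusted p = 9.02e-06) in Cdk6-/- samples. Its log2 ratios were -1.40, -0.96, -1.45 and -1.08 in Cdk6-K43M samples, against -1.63, -2.07, -1.73 and -1.89 in Cdk6-/- samples, and the difference of 0.61 (adjusted p = 0.124) passed the threshold with median centring (adjusted p = 0.0301) and over all 10 arrays (0.0318). The kinase Stk26 rose by 0.35 (adjusted p = 0.0327) and Heg1, the membrane anchor of Krit1, fell by 0.34 (adjusted p = 0.0366) in Cdk6-K43M samples. Stk26 passed in 12 of 16 alternatives (lost with processed intensity and without Cdk6-K43M sample 2, 3 or 4, adjusted p up to 0.0715) and Heg1 in 9 of 16 (lost with processed intensity, median centring and without Cdk6-K43M sample 1, 2 or 4 or Cdk6-/- sample 1 or 2, adjusted p up to 0.14).

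Of 11 minor spliceosome genes around Rbm48, 2 rose and 1 fell in Cdk6-K43M samples (27.3%, beside 25.3% of all genes with a symbol) and 1 fell in Cdk6-/- samples (9.09%, beside 8.99%). Snrnp35, a protein of the U11/U12 particle, fell by 0.26 (adjusted p = 0.00927) and 0.22 (adjusted p = 0.0409) in Cdk6-K43M and Cdk6-/- samples, and lost the threshold in both with median centring (-0.058 and -0.19). In Cdk6-/- samples the Snrnp35 call held in 9 of 16 alternatives. Pdcd7 and Scnm1 rose by 0.24 and 0.16 in Cdk6-K43M samples (adjusted p = 0.0239 and 0.0401). Pdcd7 lost the threshold without the exchanged-dye arrays (0.12, adjusted p = 0.219) and without Cdk6-K43M sample 1 (0.0573), and Scnm1 passed in only 6 of 16 alternatives (adjusted p up to 0.0894). Of 12 RBR ubiquitin ligases related to Ankib1, 4 rose in Cdk6-K43M samples (33.3%, beside 25.3% of all genes with a symbol) and 3 rose in Cdk6-/- samples (25%, beside 8.99%). Cul9 led in Cdk6-K43M samples with 0.46 (adjusted p = 0.00666), and Arih1 rose by 0.25 in each genotype (adjusted p = 0.0116 and 0.0299 in Cdk6-K43M and Cdk6-/- samples), while its 3 other probes stood between -0.09 and 0.03. The Arih1 call in Cdk6-/- samples was lost without Cdk6-/- sample 1, 2 or 4 (adjusted p up to 0.0713). In Cdk6-K43M samples Rbck1 rose by 0.27 (adjusted p = 0.0265) and Rnf31 by 0.18 (adjusted p = 0.0478), passing in 13 and 6 of 16 alternatives. In Cdk6-/- samples Rnf216 rose by 0.22 (adjusted p = 0.0272) and Rnf31 by 0.23 (adjusted p = 0.0367), passing in 12 and 10 of 16. Of 9 genes of the chromatin complex around Gatad1 and of its GATAD relatives, 2 fell in Cdk6-K43M samples (22.2%, beside 25.3% of all genes with a symbol) and 0 passed in Cdk6-/- samples (beside 8.99%). Gatad2b, a GATAD relative, fell by 0.20 (adjusted p = 0.045) in Cdk6-K43M samples and passed in only 6 of 16 alternatives. Hdac1, a histone deacetylase, fell by 0.69 (SE 0.055, adjusted p = 7e-05) in Cdk6-K43M samples and was at -0.06 (adjusted p = 0.574) in Cdk6-/- samples, with a difference of -0.63 (SE 0.082, adjusted p = 0.0175) that lost the threshold without most single samples (adjusted p up to 0.067) and with slide as a block (0.0712). The other Hdac1 probe was at -1.30 in Cdk6-K43M and 0.051 in Cdk6-/- samples.

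The profiles over the 8 single-sample arrays were compared last. For each gene's brightest probe, the genes with a symbol whose log2 ratios followed it most closely, out of 12050, lay on other chromosomes. Akap9 was followed by Resf1 (r = 0.96) and Ankrd6 (r = 0.957), Krit1 by Arhgap45 and Pbxip1 (r = 0.978 each), and Fam133b by Cfap43 (r = 0.953) and Naip6 (r = 0.934). Rbm48 was followed by Kif11 (r = 0.956) and Atp5h (r = 0.951), Gatad1 by Prlr (r = 0.98) and Nfe2 (r = 0.959), and Ankib1 by Wdr81 (r = 0.966) and Mylip (r = 0.945). These correlations are over 8 arrays that share the wild-type pool, were picked as the highest of many, and describe the profiles only. With 2 genes taken per neighbour from all chromosomes, the chromosomes they lie on are no test of linkage.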

How the data were processed

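RNA of BCR-ABL+ colonies was measured on 10 two-colour Agilent arrays. Per the file headers, the authors scanned them with Agilent Feature Extraction 11.5.1.1, and the deposited files give median spot and local background intensity in both colours, processed intensity, and flags for control, non-uniform, saturated and well-above-background spots. A deposited table of loess-normalised log2 intensity served as an alternative; 68 unreadable cells in it were treated as missing.

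Median intensity was background-corrected with normexp (offset 50) and loess-normalised within arrays with limma 3.58.1 in R 4.3.3. Control spots had weight 0 and 195 non-uniform spots were set to missing, and replicate spots were averaged. The test covered 28182 of 56605 non-control probes, those detected (flagged well above background) in 3 or more of the 4 samples of a genotype, or in wild-type RNA on 5 or more of 10 arrays. Array accessions gave 58.3% of probes a gene symbol through RefSeq (GRCm38.p6); its coordinates are used only for promoter windows and gene order. Ratios over wild type were fitted on 10 arrays with genotype coefficients and a dye term (7 residual degrees of freedom), and Cdk6-K43M over Cdk6-/- on the 8 single-sample arrays (6). In the fit over wild type, the exchanged-dye pools of the same samples entered as further arrays of equal weight. Its standard errors and degrees of freedom are thus not those of 4 independent samples per genotype. P-values were limma's, Benjamini-Hochberg adjusted over all kept probes, with a threshold of 0.05. Linear levels came from channel intensities after loess and quantile normalisation of average intensity. Scripts were tested on simulated data.

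The 6 genes and the lists were chosen with earlier results of these data known. Named were the 6 genes, Cdk6, up to 4 list members with the smallest p past the threshold, and the 2 genes most like each neighbour. A list is counted by the brightest kept probe per gene. Alternatives were no background correction, processed intensity, median centring, the deposited table, no filter, 1 probe per gene, slide or replicate number as a block, no exchanged-dye arrays, all 10 arrays, and each sample left out. An item withheld for evaluation is not reported here.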

Additional observations from a re-analysis of the deposited data

Results flagged for a closer look

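The brightest Akap9 probe had a log2 ratio of 0.64 in Cdk6-K43M sample 2, against 0.30 to 0.34 in the other 3 Cdk6-K43M samples. The gap was 0.874 of the range of the group, above Dixon's critical value for 4 samples. Of 28 groups checked, 1 was beyond it, and chance gives about 1 in 20. Without this sample the fitted ratio was 0.22 (limma adjusted p = 0.0674), and the least bright Akap9 probe stood at 0.32 (adjusted p = 0.00763).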

How the results depend on the processing

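Of 665 values of the neighbours and Cdk6 under 18 alternatives, 602 kept direction and side of the threshold, 33 had another sign but passed in neither, 14 lost the threshold, 16 gained it and 0 reversed after a call. The count of called flanking probes in Cdk6-K43M samples (4 of 13) was 9 with median centring (beside 29.1% of all kept probes), 1 of 6 with 1 probe per gene, and 3 to 5 with each sample left out. In Cdk6-/- samples (2 of 13) it was 1 on the authors' deposited table, 1 of 6 with 1 probe per gene, and 1 to 3 with each sample left out (1 without Cdk6-K43M sample 1 or 3 or Cdk6-/- sample 1, 2 or 3). Between the genotypes it was 0 throughout. With median centring Ppp1ca turned to 0.12 in Cdk6-K43M samples (adjusted p = 0.218). Over all kept probes, calls were 1917 in Cdk6-/- samples, 1010 with median centring, 3854 without the exchanged-dye arrays and 742 and 1131 without Cdk6-/- samples 1 and 2; between the genotypes 128 calls became 38 with slide as a block, 672 over all 10 arrays, and 49 to 104 with each sample left out. The cause was not tested. Same-numbered samples had correlations of deviations from -0.064 to 0.23, over 0.1 in 2 of 4 pairs. Differently numbered samples of the other genotype gave -0.25 to 0.20. These values cannot settle whether the numbers pair the samples, and the labels do not say so. With the replicate block 0 of 13 flanking probes and 41 of all kept probes were called, and Cdk6 stayed at 0.70 (limma adjusted p = 0.0609). Alternatives for the gene lists on filter, probes per gene, slide and left-out arrays were added after seeing the data.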
